A study of Schizosaccharomyces pombe with 16 samples.

Results

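The response of the Wilmar-A isolate of *Schizosaccharomyces pombe* to the loss of a last trace of glucose was measured by RNA-seq. The comparison set Wilmar-A in glucose-starved medium, which held 3% glycerol and no glucose, against Wilmar-A in glucose-deficient medium, which held 3% glycerol and 0.1% glucose. Libraries were chosen by strain and medium alone, which gave 4 of the 16 libraries of the series, 2 for each medium. Wilmar-A is the wild ancestral isolate from which the production isolate Wilmar-P was derived. It is homothallic (h90), so a culture can hold cells of both mating types. Cells were grown in rich medium with 3% glucose, washed in water and moved to the test medium for 4 h at 32 °C, so both groups had left high glucose for the same time. Glycerol was the same in both media, and the question was which transcripts changed when the remaining glucose was withheld. Wilmar-A is 1 isolate, and nothing in the sources used here says that replicates came from separate cultures, so p-values measure only the spread between libraries, which may be technical.

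Fission yeast ferments glucose by preference and grows poorly when glycerol is its only carbon source. It senses glucose at the membrane through the receptor Git3 and a trimeric G protein, which activate adenylate cyclase and, through cAMP, protein kinase A (PKA). PKA holds down genes of gluconeogenesis, stress defence and sexual development. When glucose is short, the stress MAP kinase Sty1 and its transcription factor pair Atf1-Pcr1 turn on a wide set of defence genes, the repressor Scr1 leaves the promoters it shares with the Tup11 and Tup12 co-repressors, and Ste11, the master regulator of mating, can become active.

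The glucose-starved libraries held 13866326 and 13337212 counts for replicates 1 and 2, and the glucose-deficient libraries held 18164249 and 14538608. Levels are given as CPM, counts scaled to the size of each library after TMM normalization, and 3 counts, taken as the detection floor, stood for 0.151 to 0.272 CPM in these 4 libraries. Glucose-deficient replicate 1 was made without strand information, and reads of both strands were counted there. Annotated non-coding RNA genes took 2.43% and 2.38% of counts in glucose-starved replicates 1 and 2, against 8.57% and 1.95% in glucose-deficient replicates 1 and 2. The model therefore held a term for library type, and a fitted fold change is not the plain ratio of the printed levels. Where an annotated gene lies on the opposite strand, reads of the pair cannot be told apart in that replicate. Outside the comparison but inside the same fit, Wilmar-A glucose replicate 1 carries a stranded label yet had 8.76% of counts on such genes. The term stranded follows the labels throughout, so the fits of the 13 stranded libraries include Wilmar-A glucose replicate 1 and may not be free of unstranded counts. Genes of both mating types were detected in all 4 libraries, among them the M-factor precursor *mfm2* and the P-factor precursor *map2*.

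Removal of the last glucose went with changes in 994 of 5073 protein-coding genes tested (19.6%). Of these, 453 (8.93% of all tested) were higher and 541 (10.7%) were lower in glucose-starved than in glucose-deficient cells, where a call needed a log2 fold change beyond 1 in either direction and an adjusted p below 0.05. Stress defence, cAMP-PKA sensing and autophagy genes lay among those that rose, and cell separation, mating, iron uptake, cell cycle and glycolytic genes among those that fell. In bulk RNA, fewer cells of a type or cell cycle stage and less RNA per cell cannot be told apart. The median log2 fold change over all coding genes was -0.11, and 1380 genes (27.2%) had an adjusted p below 0.05 without the fold threshold. No called gene changed sign in any alternative fit, but the number of calls depended on the libraries in the fit. The 13 stranded libraries alone gave 229 genes higher and 295 lower, and a fit of only these 4 libraries, with 2 residual degrees of freedom, called none with edgeR, although 1633 coding genes had an unadjusted p below 0.05. Without glucose-deficient replicate 2 the fit called 191 genes higher and 241 lower, and without glucose-starved replicate 2 it called 277 and 281. A core of 174 higher and 163 lower genes stayed called when each of the 4 libraries was left out in turn.

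The 12 largest rises among named genes included that of *pyp2*, which encodes the phosphatase that turns off Sty1. The largest of them was that of *hry1* (SPAC869.06c, chrI:5502560-5503291, ASM294v2), which encodes a cation-binding HHE domain protein and had 623 and 2280 CPM in glucose-starved cells, against 7.71 and 50.1 CPM in glucose-deficient cells (log2 fold change 5.14 ± 0.93 SE, adjusted p = 0.00361). *pyp2* (SPAC19D5.01, chrI:5202366-5205202), itself a known Sty1 target, had 407 and 969 CPM in glucose-starved cells, against 22.3 and 37.2 CPM in glucose-deficient cells (4.77 ± 0.76, adjusted p = 0.00176). *ddr48* reached 3448 and 4787 CPM in glucose-starved cells, against 84.5 and 201 CPM in glucose-deficient cells. For each of these 3 genes the lower glucose-starved library lay above the higher glucose-deficient one. *pcm2*, which encodes a methyltransferase that acts on damaged proteins, had 197 and 411 CPM in glucose-starved cells, against 6.35 and 15.7 CPM in glucose-deficient cells. *bit2*, which acts in TOR signalling, had 13.3 and 25.3 CPM in glucose-starved cells, against 0.806 and 1.01 CPM in glucose-deficient cells. Separation of the media without overlap was part of the rule that named these genes. Among these rises, *ddr48*, *mug108*, *cum1* and *atf21* lie wholly opposite another annotated gene, and *ppk31* over 88.2% of its length. *smp4*, *mug108*, *rtc3*, *cum1* and *prl65* completed the set, with log2 fold changes of 3.84 to 4.63. *atf21*, a transcription factor gene of the Atf family, was also in it, with 41.4 and 84.9 CPM in glucose-starved cells, against 9.02 and 4.11 CPM in glucose-deficient cells. The kinase gene *ppk31* had 123 and 130 CPM in glucose-starved cells, against 37.5 and 12.3 CPM in glucose-deficient cells. These calls were weaker: with the 13 stranded libraries alone their adjusted p was 0.103 for *atf21* and 0.14 for *ppk31*, *atf21* kept its call in 1 of the 4 fits that left out a library, and *ppk31* in none of them.

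**Figure D1:**
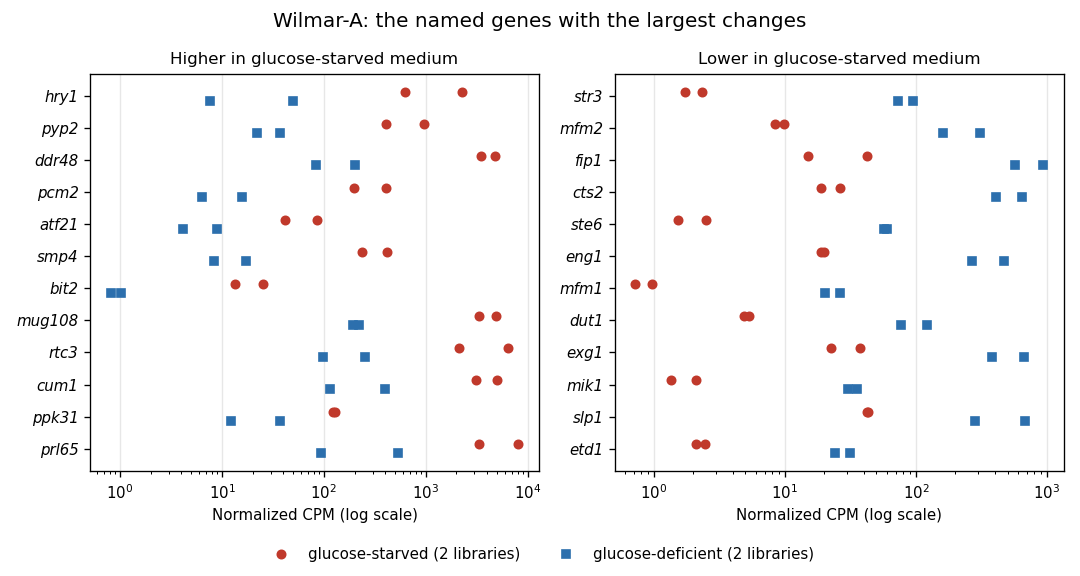
Levels of the 12 named coding genes with the largest rises and the 12 with the largest falls in Wilmar-A, as TMM-scaled CPM on a log axis, with 1 point per library (circles glucose-starved, squares glucose-deficient). In *hry1* the glucose-starved libraries stood at 623 and 2280 CPM and the glucose-deficient ones at 7.71 and 50.1 CPM, while in *str3* the glucose-starved libraries stood at 2.34 and 1.72 CPM and the glucose-deficient ones at 95.3 and 73.5 CPM.

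The deepest fall among named genes was that of *str3*, a siderophore-iron transporter gene, with 2.34 and 1.72 CPM in glucose-starved cells, against 95.3 and 73.5 CPM in glucose-deficient cells (log2 fold change -5.16 ± 0.53, adjusted p = 0.000196). It was followed by *mfm2* and the iron permease gene *fip1*. The chitinase gene *cts2* had 26.4 and 19 CPM in glucose-starved cells, against 410 and 642 CPM in glucose-deficient cells. *exg1*, which encodes a cell wall glucanase, had 37.6 and 22.6 CPM in glucose-starved cells, against 379 and 671 CPM in glucose-deficient cells. *dut1*, whose product keeps uracil out of DNA, had 4.92 and 5.34 CPM in glucose-starved cells, against 76.9 and 122 CPM in glucose-deficient cells. The *dut1* gene lies wholly opposite another annotated gene. *slp1*, the Cdc20-type activator of the anaphase-promoting complex, had 42.1 and 43.4 CPM in glucose-starved cells, against 283 and 682 CPM in glucose-deficient cells. These falls kept their calls whichever of the 4 libraries was left out.

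**Figure D2:**
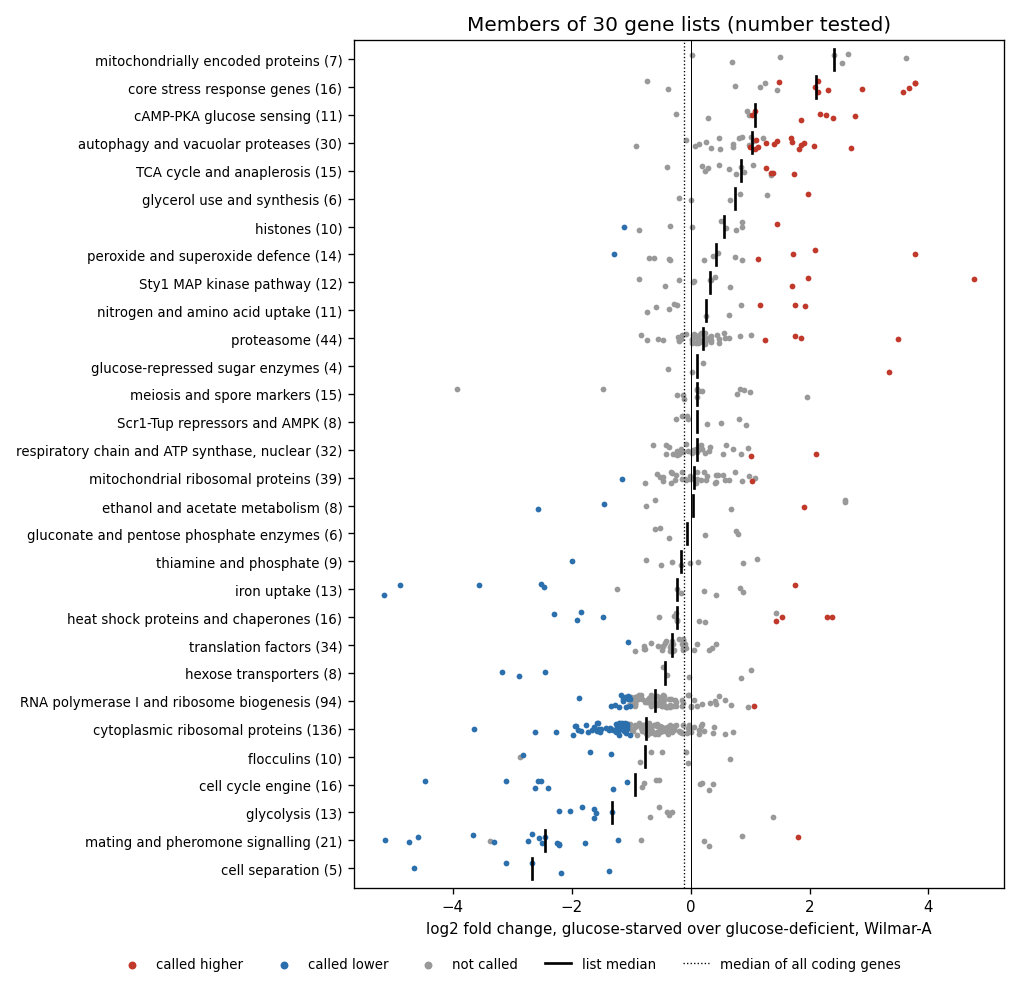
Fitted log2 fold change (glucose-starved over glucose-deficient, Wilmar-A) of each tested member of 30 gene lists, ordered by list median (black bar), with called members in colour and the median of all coding genes, -0.11, as a dotted line. Core stress response genes (median 2.12) lie to the right, and cell separation genes (median -2.66) and mating genes (median -2.45) to the left.

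Glucose sensing genes of the cAMP-PKA pathway rose in most cases: 7 of 11 tested members were called higher and none lower, with a median log2 fold change of 1.09. *git5*, the G protein beta subunit gene, had 130 and 153 CPM in glucose-starved cells, against 16.4 and 24.2 CPM in glucose-deficient cells (2.76 ± 0.31, adjusted p = 0.000267). Its gamma subunit partner *git11* had 21.9 and 27.4 CPM in glucose-starved cells, against 3.63 and 5.28 CPM in glucose-deficient cells. *pka1*, the catalytic subunit of PKA, had 727 and 834 CPM in glucose-starved cells, against 81.7 and 171 CPM in glucose-deficient cells (2.39 ± 0.29, adjusted p = 0.000482). The regulatory subunit gene *cgs1*, whose product holds PKA inactive when cAMP is low, moved in the same direction with 39.8 and 50.2 CPM in glucose-starved cells, against 8.81 and 9 CPM in glucose-deficient cells (2.28 ± 0.28, adjusted p = 0.000498). *cgs2*, the cAMP phosphodiesterase gene, the alpha subunit gene *gpa2* and *rst2*, the activator that PKA restrains, were the other members called higher. The list thus held both activators and inhibitors of the kinase among its risen members. The receptor gene *git3* had 247 and 224 CPM in glucose-starved cells, against 215 and 186 CPM in glucose-deficient cells (0.30 ± 0.28, adjusted p = 0.493), and the cyclase gene *cyr1* had a log2 fold change of 0.99, just inside the fold threshold. Without glucose-deficient replicate 2 the fit called 4 members higher, and 3 stayed called with each library left out. Among 8 genes for Scr1, its co-repressors and AMP-activated kinase neither edgeR nor DESeq2 called any, and 3 had an unadjusted p below 0.05. Without glucose-deficient replicate 1 or without glucose-starved replicate 1 edgeR called 1 of them higher. *scr1* itself had 66.1 and 74.1 CPM in glucose-starved cells, against 91.1 and 90.2 CPM in glucose-deficient cells (-0.24 ± 0.34, adjusted p = 0.668).

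Classical glucose-repressed genes did not move together. *fbp1*, the gluconeogenic fructose-1,6-bisphosphatase gene, had 384 and 799 CPM in glucose-starved cells, against 343 and 757 CPM in glucose-deficient cells (0.02 ± 0.69, adjusted p = 0.989), and the libraries of the media interleaved. In Wilmar-A with 3% glucose it had 13.5 and 11.3 CPM. *inv1*, the secreted invertase gene, had 4736 and 2371 CPM in glucose-starved cells, against 189 and 535 CPM in glucose-deficient cells (3.34 ± 0.99, adjusted p = 0.0329), and 45.5 and 30.4 CPM with 3% glucose. The groups did not overlap for *inv1*, yet it lost its call whichever of the 4 libraries was left out. The glucosidase gene *agl1* had 364 and 235 CPM in glucose-starved cells, against 177 and 504 CPM in glucose-deficient cells, and was not called. Long non-coding RNAs transcribed through the *fbp1* promoter during glucose starvation are known to open its chromatin, and the annotated *fbp1-ot3*, which was looked at after values had been seen, had 53.4 and 99.1 CPM in glucose-starved cells, against 3.22 and 5.82 CPM in glucose-deficient cells (4.25 ± 0.75, adjusted p = 0.00309). *fbp1-ot3* thus separated the media where *fbp1* did not. Both *fbp1-ot3* and *fbp1* lie wholly opposite another annotated gene, so the glucose-deficient replicate 1 value of either may include reads of the other strand.

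Of 8 hexose transporter genes, 3 were called lower (37.5%, against 10.7% of all coding genes) and none higher. Log2 fold changes were negative for 6 members and positive for 2. The larger positive one was that of *ght2*, with 486 and 1034 CPM in glucose-starved cells, against 300 and 358 CPM in glucose-deficient cells (1.02 ± 0.44, adjusted p = 0.123). *ght5*, the main high-affinity glucose transporter gene, had 3505 and 1965 CPM in glucose-starved cells, against 3703 and 4480 CPM in glucose-deficient cells (-0.46 ± 0.47, adjusted p = 0.531). *ght3*, which encodes a gluconate transporter, had 165 and 97 CPM in glucose-starved cells, against 840 and 1021 CPM in glucose-deficient cells (-2.88 ± 0.58, adjusted p = 0.00568). *ght4* was likewise lower, with 177 and 64.3 CPM in glucose-starved cells, against 659 and 698 CPM in glucose-deficient cells. *ght7* was the remaining member called lower, at levels below 10 CPM in every Wilmar-A library of the 3 media. Only these 3 of 8 members were called, and none was called without glucose-deficient replicate 2 or without glucose-starved replicate 2. With 3% glucose *ght3* had 7.46 and 9.39 CPM, so its highest levels were in glucose-deficient cells.

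**Figure D3:**
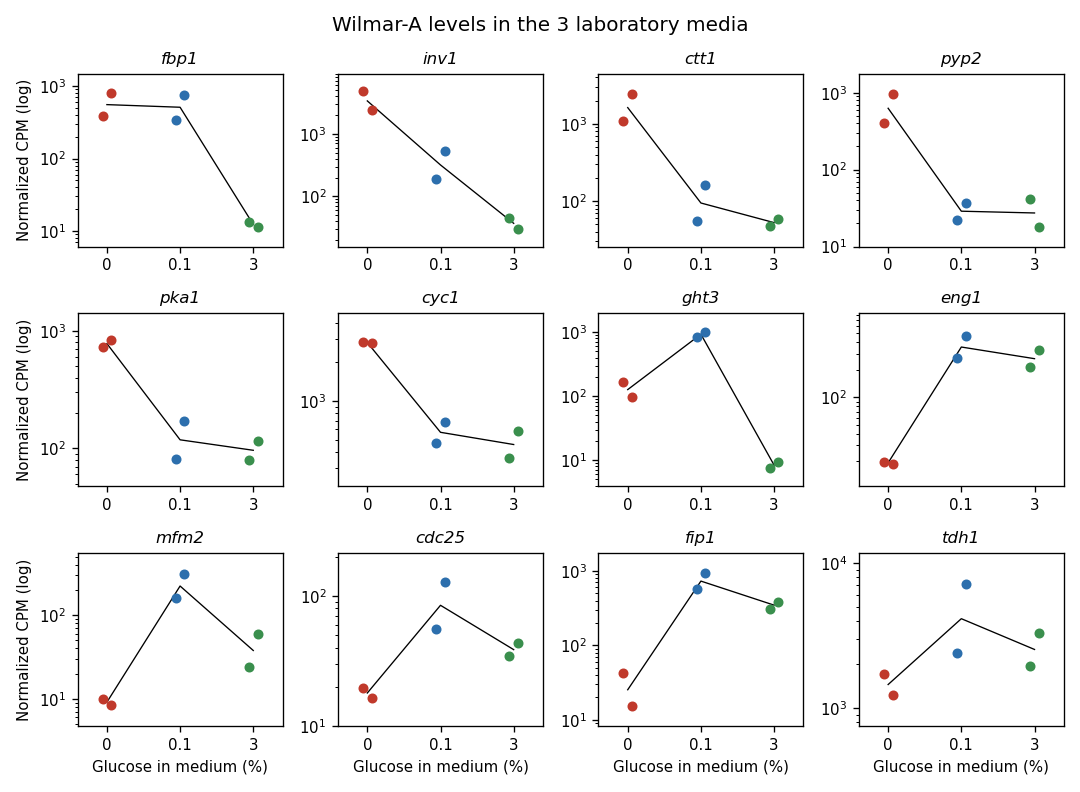
Levels of 12 genes in Wilmar-A with 0, 0.1 and 3% glucose in the medium, as TMM-scaled CPM on log axes, with 1 point per library and a line through the means of the log levels. *fbp1* was as high at 0 as at 0.1% glucose, *ctt1* and *pyp2* were high at 0% alone, and *ght3* peaked at 0.1%, where it had 840 and 1021 CPM.

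Glycolytic genes fell in part: 7 of 13 tested members were called lower and none higher, with a median of -1.32. *tdh1*, the main glyceraldehyde-3-phosphate dehydrogenase gene, had 1720 and 1226 CPM in glucose-starved cells, against 2390 and 7138 CPM in glucose-deficient cells (-2.03 ± 0.39, adjusted p = 0.00508). *hxk2*, a hexokinase gene, had 526 and 430 CPM in glucose-starved cells, against 1444 and 1481 CPM in glucose-deficient cells (-1.63 ± 0.27, adjusted p = 0.00237). *gpd3*, *pgk1*, *gpm1*, *eno101* and *pyk1*, which act in the lower, ATP-yielding stretch of the pathway, were the other members called lower. The upper-pathway genes *hxk1*, *pgi1*, *pfk1*, *fba1* and *tpi1* had log2 fold changes of -0.68 to -0.32 and were not called. *hxk2* also acts in the upper pathway, so the calls were not confined to the lower stretch. In fermentation, *pdc101*, a pyruvate decarboxylase gene, had 537 and 428 CPM in glucose-starved cells, against 2334 and 3090 CPM in glucose-deficient cells (-2.57 ± 0.36, adjusted p = 0.000916). The alcohol dehydrogenase gene *adh1* was lower too, with 3616 and 1947 CPM in glucose-starved cells, against 4184 and 8636 CPM in glucose-deficient cells (-1.46 ± 0.40, adjusted p = 0.0223), although nearly its whole length lies opposite another annotated gene. A second decarboxylase gene ran the other way: *pdc201* had 5819 and 6382 CPM in glucose-starved cells, against 649 and 2090 CPM in glucose-deficient cells (1.91 ± 0.43, adjusted p = 0.0105), and 21.8 and 38 CPM with 3% glucose. *adh1* lost its call without glucose-deficient replicate 2 or glucose-starved replicate 2, and *pdc201* without glucose-deficient replicate 1 or glucose-starved replicate 2. The glycolytic count fell to 1 without glucose-deficient replicate 2 or without glucose-starved replicate 2, and *hxk2* was the member called each time a library was left out.

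Of 6 genes for glycerol use and synthesis, 1 was called higher (16.7%, against 8.93% of all coding genes). *gld1*, the glycerol dehydrogenase that feeds glycerol into glycolysis, had 922 and 960 CPM in glucose-starved cells, against 356 and 497 CPM in glucose-deficient cells (1.28 ± 0.64, adjusted p = 0.176), and 10.7 and 6.24 CPM with 3% glucose. The dihydroxyacetone kinase gene *dak1* had 1052 and 1102 CPM in glucose-starved cells, against 591 and 1211 CPM in glucose-deficient cells. *gpd1*, the stress-regulated enzyme of glycerol synthesis, was that member, with 8315 and 10476 CPM in glucose-starved cells, against 966 and 2612 CPM in glucose-deficient cells (1.98 ± 0.50, adjusted p = 0.0165); that call held without glucose-starved replicate 1 and was lost when any other of the 4 was left out. Of 6 gluconate and pentose phosphate genes, 0 were called by edgeR or DESeq2 and 0 had an unadjusted p below 0.05.

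Mitochondrial genes moved unevenly. Of 15 genes of the TCA cycle and its supply, 4 were called higher (26.7%, against 8.93% of all coding genes) and none lower (median 0.84). *sdh2*, the iron-sulfur subunit of succinate dehydrogenase, had 507 and 610 CPM in glucose-starved cells, against 151 and 174 CPM in glucose-deficient cells (1.74 ± 0.28, adjusted p = 0.00174), and was the member that stayed called with each library left out. *sdh3*, *kgd1* and *dld1* were called higher with all libraries and lost their calls whichever library was left out. Of 32 nuclear genes of the respiratory chain and ATP synthase, *cyc1* and *rip1* were called higher and the list median was 0.11, with neither called without glucose-deficient replicate 2. The members called higher were 6.25% of that list, against 8.93% of all coding genes. *cyc1*, cytochrome c, had 2873 and 2804 CPM in glucose-starved cells, against 473 and 687 CPM in glucose-deficient cells (2.11 ± 0.38, adjusted p = 0.00352), and 360 and 583 CPM with 3% glucose. The ATP synthase catalytic subunit gene *atp2* had 3276 and 3021 CPM in glucose-starved cells, against 3130 and 5311 CPM in glucose-deficient cells (-0.63 ± 0.44, adjusted p = 0.341). Of 39 mitochondrial ribosomal protein genes, 1 was called higher and 1 lower (2.56% each). Mitochondrially encoded protein genes had at most 4.52 CPM in these libraries and none of 7 was called by edgeR or DESeq2, with 1 at an unadjusted p below 0.05.

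Most core stress response genes rose: 10 of 16 were called higher and none lower, with a median of 2.12, and 9 stayed called with each library left out. *ctt1*, catalase, had 1076 and 2443 CPM in glucose-starved cells, against 55 and 162 CPM in glucose-deficient cells (3.77 ± 0.70, adjusted p = 0.00422), and 46.9 and 59 CPM with 3% glucose. *hsp9*, a small heat shock protein gene, had 20470 and 28900 CPM in glucose-starved cells, against 3267 and 6237 CPM in glucose-deficient cells (2.14 ± 0.37, adjusted p = 0.00286). *ish1*, a nuclear envelope stress gene, had 3896 and 5292 CPM in glucose-starved cells, against 155 and 490 CPM in glucose-deficient cells (3.58 ± 0.46, adjusted p = 0.000573). *lsd90*, *rds1*, *gst3*, *cta3*, *ntp1*, *gpx1* and *tpp1* were the other members called. The trehalose synthase gene *tps1* had 1591 and 2011 CPM in glucose-starved cells, against 260 and 824 CPM in glucose-deficient cells (1.26 ± 0.44, adjusted p = 0.0614). The promoter of *ctt1* is shown as an example, since it holds the CRE core TGACGT that Atf1-Pcr1 binds. It covers the 250 bases before the annotated RefSeq start on chrIII:58834-59083 (minus strand, ASM294v3), with the core in capitals.
ctt1: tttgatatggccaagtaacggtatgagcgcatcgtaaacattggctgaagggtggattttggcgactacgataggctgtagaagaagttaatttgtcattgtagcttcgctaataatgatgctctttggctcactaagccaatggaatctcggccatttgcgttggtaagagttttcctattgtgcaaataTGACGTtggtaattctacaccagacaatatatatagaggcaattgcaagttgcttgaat

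Among genes of the Sty1 pathway, those for the phosphatase and the transcription factors changed. Of 12 tested members, 3 were called higher (25%, against 8.93% of all coding genes): *pyp2*, *atf1* and *pcr1*. *atf1* had 414 and 472 CPM in glucose-starved cells, against 70.9 and 130 CPM in glucose-deficient cells (1.71 ± 0.30, adjusted p = 0.00321), and *pcr1*, its partner, had 296 and 390 CPM in glucose-starved cells, against 51.1 and 103 CPM in glucose-deficient cells (1.97 ± 0.35, adjusted p = 0.00321). *sty1* had 434 and 526 CPM in glucose-starved cells, against 287 and 281 CPM in glucose-deficient cells (0.66 ± 0.28, adjusted p = 0.107), and the upstream kinase gene *wis1* had a log2 fold change of -0.43 ± 0.21 (adjusted p = 0.153). TGACGT, on either strand, was in 16.4% of promoters of genes called higher, 2.96% of those called lower and 5.54% of all 5072 promoters read. It was in 6 of the 16 core stress promoters. CCCCTC, the stress element that Rst2 also binds, was in 1.33% of promoters of genes called higher, 3.33% of those called lower, 1.72% of all promoters and 0 of the 16 core stress promoters.

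Heat shock and chaperone genes divided, with 4 of 16 called higher and 4 called lower (25% each, against 8.93% and 10.7% of all coding genes). The fit called 1 in either direction without glucose-deficient replicate 2, and 3 higher and 2 lower without either glucose-starved replicate. The disaggregase gene *hsp104* had 193 and 211 CPM in glucose-starved cells, against 79.6 and 38 CPM in glucose-deficient cells (2.37 ± 0.30, adjusted p = 0.000544). *hsf1*, *hsp16* and *psi1* were also called higher. *hsp90* had 538 and 449 CPM in glucose-starved cells, against 1962 and 2106 CPM in glucose-deficient cells (-2.30 ± 0.55, adjusted p = 0.0134), and *mas5*, an Hsp40 co-chaperone, had 188 and 170 CPM in glucose-starved cells, against 530 and 652 CPM in glucose-deficient cells (-1.84 ± 0.26, adjusted p = 0.000877). The heat shock protein genes *ssa2* and *pss1* were the other members called lower, while *ssa1* had 1394 and 852 CPM in glucose-starved cells, against 322 and 470 CPM in glucose-deficient cells, and was not called (adjusted p = 0.0848). Of 14 peroxide and superoxide defence genes, *ctt1*, *gpx1*, *srx1* and *prr1* were called higher (28.6%, against 8.93% of all coding genes). The thioredoxin gene *trx2* was called lower (7.14%, against 10.7%). *ctt1* and *gpx1* were the members that stayed called with each library left out. The peroxiredoxin gene *tpx1* had 2773 and 3547 CPM in glucose-starved cells, against 932 and 2783 CPM in glucose-deficient cells (0.38 ± 0.38, adjusted p = 0.514).

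Nearly as many autophagy and vacuolar protease genes rose as were not called, with 14 of 30 called higher, 16 not called and none lower (median 1.03). *atg101*, part of the Atg1 kinase complex that starts autophagy, had 30.5 and 56 CPM in glucose-starved cells, against 5.49 and 7.06 CPM in glucose-deficient cells (2.69 ± 0.34, adjusted p = 0.000516). *atg14*, of the lipid kinase complex, had 207 and 250 CPM in glucose-starved cells, against 47.7 and 70.4 CPM in glucose-deficient cells (1.82 ± 0.20, adjusted p = 0.000229). *atg8*, the ubiquitin-like protein put on autophagosome membranes, had 212 and 287 CPM in glucose-starved cells, against 70.2 and 120 CPM in glucose-deficient cells (1.14 ± 0.28, adjusted p = 0.0152). The vacuolar protease genes *isp6* and *psp3* were called as well. Selective autophagy receptor partner *atg11* had 50.4 and 45.9 CPM in glucose-starved cells, against 80.7 and 90.4 CPM in glucose-deficient cells (-0.92 ± 0.19, adjusted p = 0.00663), a change inside the fold threshold. The count fell to 9 without glucose-deficient replicate 2 or glucose-starved replicate 2, and 7 members stayed called throughout. Among 44 proteasome genes 4 were called higher, among them the inhibitor-like gene *fub1* and the assembly gene *pac4*, and the list median was 0.20, with 2 called higher and 1 lower without glucose-deficient replicate 2. The proteasome share called higher was 9.09%, close to the 8.93% of all coding genes. Among 11 nitrogen and amino acid uptake genes, the permease genes *per1*, *put4* and *cat1* were called higher (27.3%, against 8.93% of all coding genes).

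Cell separation genes fell together. All 5 members listed were called lower, with a median of -2.66, and 4 stayed called with each library left out. *eng1*, the glucanase that dissolves the division septum, had 19.9 and 18.8 CPM in glucose-starved cells, against 268 and 468 CPM in glucose-deficient cells (-4.65 ± 0.26, adjusted p = 1.74e-05). *agn1*, the glucanase that opens the surrounding cell wall, had 65 and 49.7 CPM in glucose-starved cells, against 204 and 363 CPM in glucose-deficient cells (-2.66 ± 0.33, adjusted p = 0.000516). *adg2*, a cell surface protein gene, had 168 and 211 CPM in glucose-starved cells, against 728 and 1848 CPM in glucose-deficient cells (-3.11 ± 0.41, adjusted p = 0.000657).

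Flocculin genes, which encode cell surface adhesins, fell in part: 3 of 10 were called lower (30%, against 10.7% of all coding genes). Of these *pfl2* had the largest change, with 125 and 103 CPM in glucose-starved cells, against 565 and 902 CPM in glucose-deficient cells (-2.81 ± 0.35, adjusted p = 0.000517). Only 1 of the 3 was called whichever library was left out. *gsf2*, the main flocculin gene, had 89.6 and 69.3 CPM in glucose-starved cells, against 256 and 109 CPM in glucose-deficient cells (-0.85 ± 0.51, adjusted p = 0.264).

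Cell cycle genes were lower in 8 of 16 cases and higher in none (median -0.94). *mik1*, an inhibitory kinase of Cdc2, had 2.1 and 1.36 CPM in glucose-starved cells, against 30.5 and 35.4 CPM in glucose-deficient cells (-4.47 ± 0.38, adjusted p = 8.08e-05). *cig2*, the S phase cyclin gene, had 24.7 and 12.6 CPM in glucose-starved cells, against 177 and 168 CPM in glucose-deficient cells (-3.10 ± 0.40, adjusted p = 0.000624). *cdt1*, a replication licensing gene, had 7.83 and 6.52 CPM in glucose-starved cells, against 34.8 and 37.3 CPM in glucose-deficient cells (-2.51 ± 0.30, adjusted p = 0.000369). *cdc25*, for the phosphatase that triggers mitosis (-2.57 ± 0.31, adjusted p = 0.000446), *cdc18*, *cdc22*, *cdc13* and *cig1* completed the members called lower, while the kinase gene *cdc2* had 165 and 176 CPM in glucose-starved cells, against 132 and 133 CPM in glucose-deficient cells (0.31 ± 0.19, adjusted p = 0.263). With 3% glucose *cdt1* had 15.9 and 23.3 CPM, between the levels of the glycerol media. Without glucose-deficient replicate 2 the fit called 5 members. *cdc22*, the large ribonucleotide reductase subunit gene, had 250 and 198 CPM in glucose-starved cells, against 780 and 1455 CPM in glucose-deficient cells (-2.61 ± 0.49, adjusted p = 0.00422). Its promoter is shown for its paired MluI cell cycle boxes (ACGCGT, in capitals), the site of the G1 to S transcription factor MBF, on chrI:4226720-4226969 (plus strand, ASM294v3).
cdc22: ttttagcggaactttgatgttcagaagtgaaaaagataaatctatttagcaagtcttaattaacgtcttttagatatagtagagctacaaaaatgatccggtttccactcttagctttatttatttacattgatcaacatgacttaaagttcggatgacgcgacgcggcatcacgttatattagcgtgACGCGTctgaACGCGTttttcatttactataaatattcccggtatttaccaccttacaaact

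ACGCGT, a motif added to the search after values had been seen, was in 4.81% of promoters of genes called lower, 0.885% of those called higher and 2.66% of all promoters. Of 10 histone genes, 1 was called higher and 1 lower with all libraries. These shares, 10% each, are close to the 8.93% higher and 10.7% lower of all coding genes. *hht2*, a histone H3 gene, had 5358 and 5878 CPM in glucose-starved cells, against 1302 and 2106 CPM in glucose-deficient cells (1.46 ± 0.36, adjusted p = 0.0151), and *hht1*, also for histone H3, had 444 and 595 CPM in glucose-starved cells, against 639 and 1119 CPM in glucose-deficient cells (-1.12 ± 0.35, adjusted p = 0.0407). *hht1* lost its call whichever library was left out, and *hht2* lost it in all such fits but that without glucose-starved replicate 1.

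Most mating and pheromone genes were lower without glucose: 15 of 21 tested members were called lower and 1 higher (median -2.45), and 11 stayed called lower with each library left out. *ste11*, the master regulator of the pathway, had 28.5 and 26.3 CPM in glucose-starved cells, against 98.2 and 131 CPM in glucose-deficient cells (-2.24 ± 0.35, adjusted p = 0.00173), and 40 and 67 CPM with 3% glucose. *mfm2* had 9.84 and 8.42 CPM in glucose-starved cells, against 162 and 307 CPM in glucose-deficient cells (-5.14 ± 0.54, adjusted p = 0.000216). *mfm1*, a further M-factor gene, had 0.968 and 0.724 CPM in glucose-starved cells, against 20.4 and 26.2 CPM in glucose-deficient cells. Receptor genes of both mating types fell. *mam2*, the P-factor receptor gene, had 4.36 and 4.62 CPM in glucose-starved cells, against 49.2 and 58.4 CPM in glucose-deficient cells. *map3*, the M-factor receptor gene, had 24 and 20.6 CPM in glucose-starved cells, against 99.4 and 160 CPM in glucose-deficient cells. Inside the cell, the Ras activator gene *ste6*, the MAP kinase gene *spk1* and the RNA-binding meiosis regulator gene *mei2* were called lower. *ras1* had 55.8 and 68.8 CPM in glucose-starved cells, against 61.9 and 50.4 CPM in glucose-deficient cells. *ste6* lies wholly opposite another annotated gene, *spk1* over 71.2% of its length and *ras1* over 84.6%. The cell fusion gene *fus1* was the exception, with 26.4 and 24.4 CPM in glucose-starved cells, against 23.5 and 6.99 CPM in glucose-deficient cells (1.80 ± 0.47, adjusted p = 0.0204), and its call was lost whichever of the 4 libraries was left out. *fus1* lies opposite another annotated gene over 70% of its length, and its 23.5 CPM is from the unstranded library. Among 15 later meiosis and spore genes edgeR called none, with 1 at an unadjusted p below 0.05, and DESeq2 called 1 lower. Of these, *rec7*, *dmc1*, *mde2* and *spo4* lie wholly opposite another annotated gene. They had at most 0.388 CPM in the stranded libraries of the comparison and 29 to 155 CPM in the unstranded one. Lack of a call does not show that they were unchanged. *rgs1*, which damps pheromone signalling, had 5.65 and 6.97 CPM in glucose-starved cells, against 66 and 85 CPM in glucose-deficient cells (-3.65 ± 0.27, adjusted p = 4.05e-05). Its promoter is shown for its Ste11 sites (TR boxes, in capitals), on chrI:679553-679802 (plus strand, ASM294v3).
rgs1: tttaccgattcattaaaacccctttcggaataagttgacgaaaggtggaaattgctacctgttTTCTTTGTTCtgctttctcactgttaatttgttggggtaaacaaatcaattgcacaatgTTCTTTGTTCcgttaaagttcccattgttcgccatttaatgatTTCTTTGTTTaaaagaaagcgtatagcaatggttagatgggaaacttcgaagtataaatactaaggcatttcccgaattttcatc

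The TR box was in 3.51% of promoters of genes called lower, 0.664% of those called higher and 1.18% of all promoters, and in 5 of the 21 promoters of the list.

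A minority of the genes of the translation machinery were called lower, although most had a negative log2 fold change. Of 136 cytoplasmic ribosomal protein genes, 44 were called lower and none higher, and 125 had a negative log2 fold change (median -0.75). The list median lay between -0.91 and -0.58 in every alternative fit, while the count fell to 8 without glucose-deficient replicate 2, 11 without glucose-starved replicate 2, 20 without glucose-starved replicate 1 and 23 without glucose-deficient replicate 1. *rpl803*, for uL2, had 601 and 486 CPM in glucose-starved cells, against 1388 and 2195 CPM in glucose-deficient cells (-1.97 ± 0.29, adjusted p = 0.00115). *rpp101*, a stalk protein gene, had 232 and 195 CPM in glucose-starved cells, against 664 and 753 CPM in glucose-deficient cells (-1.94 ± 0.34, adjusted p = 0.00331). Paralogs share the same protein here, and *rpl1603*, *rps1401* and *rps2601*, with the largest falls, each lie wholly opposite another annotated gene. The promoter of *rpl803* is shown for its HomolD box (CAGTCACA, in capitals), the core element of fission yeast ribosomal protein promoters, on chrII:601002-601251 (plus strand, ASM294v3).
rpl803: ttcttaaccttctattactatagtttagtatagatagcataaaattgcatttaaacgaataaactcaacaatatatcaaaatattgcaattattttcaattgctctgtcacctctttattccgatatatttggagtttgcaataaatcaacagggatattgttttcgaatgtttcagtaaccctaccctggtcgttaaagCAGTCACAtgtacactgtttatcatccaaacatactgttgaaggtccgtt

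CAGTCACA was in 87 of the 136 ribosomal protein promoters, in 7.21% of promoters of genes called lower, in 0.221% of those called higher and in 2.64% of all promoters. Of 94 RNA polymerase I and ribosome biogenesis genes, 15 were called lower (16%, against 10.7% of all coding genes) and 1 higher (1.06%, against 8.93%). The list median was -0.59. *nop52* led the 15 genes called lower, with 10.9 and 11 CPM in glucose-starved cells, against 41.9 and 34.8 CPM in glucose-deficient cells (-1.87 ± 0.27, adjusted p = 0.00105). This count was 2 without glucose-deficient replicate 1, 5 without glucose-starved replicate 1, 8 without glucose-starved replicate 2 and 18 without glucose-deficient replicate 2. Of 34 translation factor genes, *tif310* alone was called, as lower (2.94%, against 10.7% of all coding genes).

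**Figure D4:**
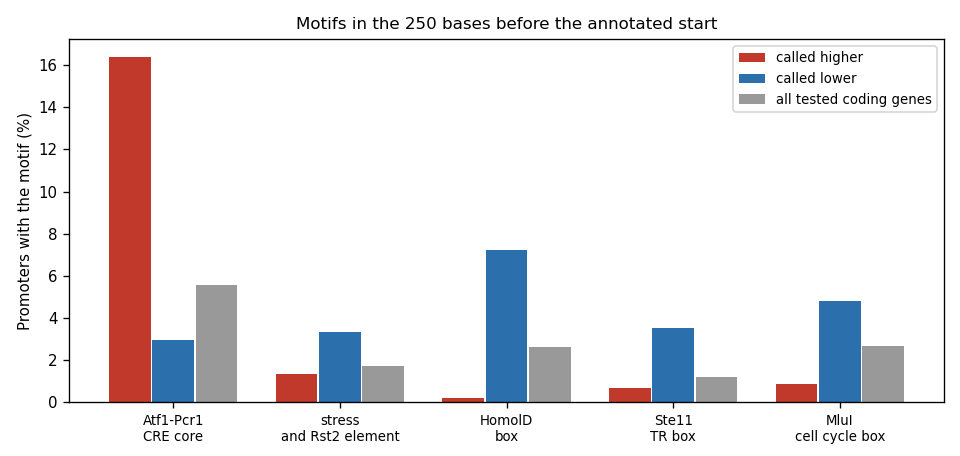
Share of promoters (250 bases before the annotated start, either strand) that hold each of 5 motifs, for genes called higher, genes called lower and all 5072 tested coding genes with a promoter. TGACGT was in 16.4% of promoters of genes called higher and 5.54% of all, and CAGTCACA was in 7.21% of those called lower and 2.64% of all.

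Some iron uptake genes fell in glucose-starved cells, while the list median was close to that of all coding genes. Of 13 tested members, 5 were called lower and 1 higher (median -0.22, against -0.11 over all coding genes), and 3 were called lower without glucose-deficient replicate 2 or glucose-starved replicate 2. *str3* was the member with the deepest fall. *fip1*, for the permease of reductive iron uptake, had 42.5 and 15.1 CPM in glucose-starved cells, against 567 and 939 CPM in glucose-deficient cells. Its multicopper oxidase partner *fio1* had 28.8 and 19.7 CPM in glucose-starved cells, against 154 and 303 CPM in glucose-deficient cells. These 3 genes stayed called whichever library was left out. The ferric reductase gene *frp1* had 16.5 and 7.33 CPM in glucose-starved cells, against 77.3 and 71.3 CPM in glucose-deficient cells (-2.52 ± 0.57, adjusted p = 0.01), and the siderophore transporter gene *str1* was lower as well. The iron regulators *fep1* and *php4* were not called. *fep1*, the repressor of iron uptake, had 81.8 and 99.9 CPM in glucose-starved cells, against 64.7 and 46.8 CPM in glucose-deficient cells (0.89 ± 0.21, adjusted p = 0.012), a change inside the fold threshold. Of 9 thiamine and phosphate genes, 1 was called lower (11.1%, close to the 10.7% of all coding genes). It was the acid phosphatase gene *pho4*, with 47 and 39.7 CPM in glucose-starved cells, against 122 and 184 CPM in glucose-deficient cells (-2.00 ± 0.21, adjusted p = 0.000225).

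Among 1589 tested genes without a protein-coding entry in the annotation, 1311 of them long non-coding RNAs, 174 (11.0%) were higher and 52 (3.27%) lower in glucose-starved cells. With the 13 stranded libraries alone, a fit that also has no library type term, they were 53 and 29. With a library of the comparison left out they were 77 and 36 without glucose-deficient replicate 1, 34 and 13 without glucose-deficient replicate 2, 95 and 31 without glucose-starved replicate 1, and 86 and 19 without glucose-starved replicate 2. *SPNCRNA.126* (chrIII:895866-895962) had 181 and 292 CPM in glucose-starved cells, against 3.02 and 9.55 CPM in glucose-deficient cells (4.81 ± 0.40, adjusted p = 8.08e-05). It lies wholly inside another annotated gene of the same strand, and since a read was counted for each gene it overlapped, reads of the pair cannot be told apart. *SPNCRNA.1069* had 1.69 and 0.996 CPM in glucose-starved cells, against 26.1 and 33.5 CPM in glucose-deficient cells (-4.87 ± 0.46, adjusted p = 0.000124), and lies wholly opposite another annotated gene. *SPNCRNA.837* had 1.21 and 1.9 CPM in glucose-starved cells, against 98.7 and 33.2 CPM in glucose-deficient cells (log2 fold change -4.11, adjusted p = 0.0141). It too lies wholly opposite another annotated gene, its higher glucose-deficient value is that of the unstranded library, and it kept its call in 1 of the 4 fits that left out a library. *SPNCRNA.931* had 22.4 and 44.7 CPM in glucose-starved cells, against 21 and 1.01 CPM in glucose-deficient cells (5.63 ± 1.58, adjusted p = 0.0259 with all libraries). It also lies wholly opposite another annotated gene, and its 21 CPM is the value of the unstranded library. Its log2 fold change ran from 1.61 to 6.82 over the alternative fits, so this rise is uncertain.

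Wilmar-P, the derived isolate, gave the same contrast in separate libraries, with 579 coding genes higher (11.4%) and 589 lower (11.6%) in glucose-starved than in glucose-deficient cells. Of the 453 genes called higher in Wilmar-A, all had a positive log2 fold change in Wilmar-P and 410 were called higher there (median 1.70 in Wilmar-A and 1.85 in Wilmar-P). Of the 541 called lower in Wilmar-A, all had a negative value in Wilmar-P and 406 were called lower (median -1.39 in Wilmar-A and -1.37 in Wilmar-P). The isolates shared no library, but both have an unstranded glucose-deficient replicate 1 and share the fitted library type term. A test of the difference between the isolates' responses called 0 of 5073 coding genes with edgeR and 2 with DESeq2, and 86 genes (1.70%) had an unadjusted p below 0.05 in the edgeR fit. A p that misses the threshold does not show that the responses were alike. The lowest unadjusted p among list members were those of *str3* (0.000457), *adg1* (0.00134) and *pdc101* (0.00279), all with an adjusted p of 1. *str3* had 0.168 and 0.598 CPM in Wilmar-P glucose-starved cells, against 267 and 232 CPM in Wilmar-P glucose-deficient cells, where the floor of 3 counts stood at 0.252 and 0.256 CPM in the glucose-starved libraries. *pdc101* had 232 and 166 CPM in Wilmar-P glucose-starved cells, against 3559 and 4164 CPM in Wilmar-P glucose-deficient cells. *rgs1* had nearly the same response in each isolate, -3.65 ± 0.27 in Wilmar-A and -3.65 ± 0.28 in Wilmar-P.

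**Figure D5:**
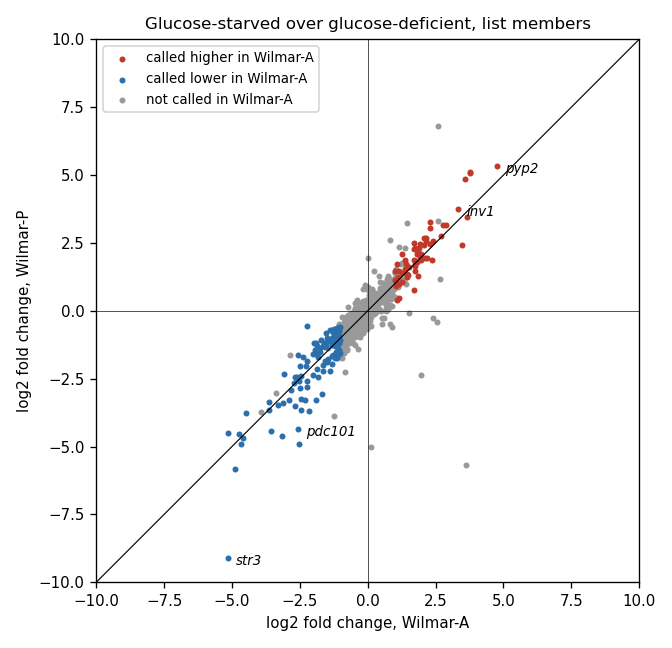
Fitted log2 fold change (glucose-starved over glucose-deficient) of list members in Wilmar-A (x axis) and Wilmar-P (y axis), coloured by the Wilmar-A call, with the line of equal response. Called members lie in the same quadrant in each isolate, and *str3*, with -5.16 in Wilmar-A and -9.12 in Wilmar-P, lies farthest below the line among those labelled.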

How the data were processed

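RNA-seq libraries were prepared from total RNA after ribosomal RNA depletion and sequenced on an Illumina HiSeq 2500. The authors trimmed adapters, aligned reads with TopHat2 2.1.1 to the reference genome (ASM294v2) and deposited raw counts per gene from featureCounts 1.5.2. A read was counted for each gene it overlapped, with strand used only for stranded libraries, which by the labels were 13. For Wilmar-A glucose replicate 1, labelled stranded, the 8.76% of counts on non-coding genes was near the 8.57% of the unstranded glucose-deficient replicate 1. Of 7019 genes, 6662 passed edgeR's expression filter. All 16 libraries (8 groups of 2) were fitted with edgeR 4.0.16 (R 4.3.3), with TMM scaling, group and library type as terms and 7 residual degrees of freedom, and the quasi-likelihood test was adjusted by Benjamini-Hochberg over all tested genes. Isolates were compared by an interaction contrast. With 2 libraries per group, precision is limited. Gene lists are described by counts and medians, without a set test. Members and lists were chosen with earlier results of these data known, and list entries whose symbols belonged to other genes were dropped after the table was read. Named genes were the 12 largest called changes in either direction with at least 10 CPM and no overlap between libraries, up to 4 called members in either direction per list with main enzymes and regulators, the 2 largest non-coding changes in either direction, and *scr1*, *ght5*, *fbp1*, *gld1*, *adh1*, *tdh1*, *ste11* and *hsp9*. Other genes were named after their values were seen, and 1 gene is not reported here. Promoters were read from RefSeq (ASM294v3), where 6845 of the 7019 genes matched; coordinates of ASM294v2 were not converted. On simulated counts for this comparison (6637 genes, 200 changed), edgeR recovered 50 of 100 changes of 1.5 and 100 of 100 changes of 3 on the log2 scale, with 5 unchanged genes called. Replicates of a group were drawn there from the same mean, without a library type effect. The simulation therefore does not show how often calls fail where library types differ, as they do here. Alternatives were DESeq2 1.42.0, other scaling, filters, library type terms and sample sets, a replicate block, and leaving out each library.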

Additional observations from a re-analysis of the deposited data

How the results depend on the processing

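Among called genes directions were stable, and counts were not. None of the 453 higher and 541 lower coding genes changed sign in an alternative. Genes called for large changes were unlikely to do so in fits that share most libraries. Some genes that were not called did change sign: log2 fold changes ran from -0.60 to 1.12 for *fbp1* and from -0.94 to 0.14 for *ght5*. DESeq2's Wald test gave 526 and 511, its size factors in edgeR 493 and 493, no filter 446 and 540, and no library type term 489 and 530. With the 13 stranded libraries alone, 229 coding genes were higher and 295 lower, with 53 and 29 non-coding genes. When replicate 1 of Wilmar-A in glucose was taken to lack strand information, the counts were 518 and 617 coding genes and 313 and 89 non-coding genes, and the common dispersion was 0.0447 in place of 0.1. A minimum of 10 counts in every library left 33 non-coding genes lower. The 4 libraries alone, with 2 residual degrees of freedom, gave 0 calls by edgeR among coding and non-coding genes in either direction, with 1633 coding genes at an unadjusted p below 0.05. Leaving out each library in turn gave 191 to 402 coding genes higher and 241 to 373 lower, and 34 to 95 non-coding genes higher and 13 to 36 lower. The isolate test called 2 coding genes with DESeq2, and it could not be made from the 4 libraries alone. Replicate numbers in the labels are shared between media, but no label ties them to a shared culture or day, so the number was not taken as a pairing. Same-numbered libraries deviated together only weakly (r = 0.18 across 5073 coding genes, which are not independent replicates). The glucose-deficient difference in that correlation was between an unstranded and a stranded library, without correction, so it cannot decide whether replicates were paired. With the replicate number as a block, 452 coding genes were higher and 502 lower. The block together with the relabelled library, chosen after seeing the data, gave 524 and 611 coding genes and 315 and 89 non-coding genes. Most list members and other named genes had no call to lose. Of the 671 tested in the fit of the 4 libraries alone, which called none, 199 lost a call. The cause of these differences was not tested. With 2 libraries per medium and 1 of them unstranded, genes overlapped on the opposite strand and genes near the floor are the least certain.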
